A study of Mus musculus with 11 samples.

Results

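Lysosomal genes were followed in sorted and in cultured mouse microglia, the resident macrophages of the brain. A list of 54 genes was used, covering hydrolases of the lysosomal lumen, proteins of its membrane, subunits of the vacuolar proton pump (v-ATPase), the MiT/TFE transcription factors, progranulin and lysozyme. The genes were listed by the known role of their proteins, but with earlier results of these data known. They were found on the arrays by matching the RefSeq accession of each probe to a gene symbol. Of the 54 genes, 51 had a matched probe, and all 51 passed the filter on dim probes and were tested among 19555 genes. Gusb, Npc1 and Cd68 had no matched probe and were not analysed here. Each value is a normalised log2 intensity, the mean over the probes of a gene, so that a difference of 1 is a doubling of signal. Intensities of different genes were not set against each other, because probes differ in brightness. Expression was measured on 11 single-colour arrays in 4 groups, all from C57BL/6N mice. Microglia of adult females aged 12 to 24 weeks (A_FACS, n = 2) and of newborns of both sexes at postnatal day 1 to 3 (NB_FACS, n = 3) were sorted on intermediate CD45 and high CX3CR1 after a Percoll gradient and were not cultured. Newborn cells for culture were first grown in mixed flask cultures in serum medium, fed with 20% L-929 conditioned medium. By the study's methods they were shaken off only weeks after the brains were taken. They were then kept for 1 day in medium with 10% serum. This was done either without cytokines (NB_Control, n = 3) or with 100 ng/mL each of the human cytokines TGF-β1, IL-34 and CX3CL1 (NB_Stim, n = 3). The study's methods state that adults were killed with carbon dioxide and perfused, and that newborns were decapitated. Adult brains were pressed through a strainer and newborn brains were dissociated by pipette. Age, sex and these steps differed together between the sorted groups and cannot be told apart. Between sorted and cultured newborn cells, the 1 day of culture, the weeks in flasks and the way of isolation differed together. These cannot be told apart either.

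Lysosomes are acidic organelles in which many hydrolases break down proteins, glycans and lipids that reach them by phagocytosis, endocytosis and autophagy. The v-ATPase pumps protons into the lumen, heavily glycosylated membrane proteins line it, and the MiT/TFE factors TFEB, TFE3 and MITF switch on many lysosomal genes by binding an E-box in their promoters, the CLEAR element. Microglia are known for a large lysosomal system, which they use to clear dying cells, myelin and synapses.

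The 3 newborn samples numbered 3 shared slide 2, and slide 1 held the remaining 8, with a 75th percentile signal of 173 to 315 on slide 1 and of 446 to 509 on slide 2. Between 66.8% and 80.4% of probes on an array were well above background, and no spot was saturated. Arrays 1 and 2 of NB_Control were closer to each other (r = 0.9952 over genes) than any other pair within a group, followed by arrays 1 and 2 of NB_Stim (r = 0.9939). The other pairs within a group lay between r = 0.9652 and 0.9894. The labels were checked against markers. The summed signal of 5 microglial genes was 122000 to 141000 in A_FACS, 39100 to 45500 in NB_FACS, 2630 to 5950 in NB_Control and 26300 to 27400 in NB_Stim, and none of the 5 was below background in any group. This sum is of linear signal and is carried mostly by its brightest probes. In NB_Stim, P2ry12 and Tmem119 were called lower than in NB_FACS and the other 3 genes were not called. P2ry12 had a mean of 7.54 in NB_Stim, against 12.95 in NB_FACS and 6.51 in NB_Control. Genes of other cell types moved with the groups too. The sum of 5 border macrophage genes was 10500 to 12500 in NB_FACS, 43200 to 86800 in NB_Control, 19000 to 32500 in NB_Stim and 235 to 589 in A_FACS. The list was split, since Pf4 and Ms4a7 were higher in both cultured groups than in NB_FACS while Cd163 and Lyve1 were lower in both and Mrc1 was lower in NB_Stim. The sum of 5 fibroblast genes was 903 to 1130 in NB_FACS, 30300 to 36200 in NB_Control, 16900 to 38300 in NB_Stim and 1040 to 2180 in A_FACS. The sum of 3 erythroid genes fell from 135000 to 178000 in NB_FACS to 23.2 to 47.8 in NB_Control, with 2 of the 3 below background there, and was 8030 to 24100 in A_FACS. The sum of 4 endothelial genes was 4270 to 5950 in NB_FACS, 339 to 688 in NB_Control, 1590 to 1680 in NB_Stim and 5490 to 11300 in A_FACS. Here too the list was split. Cldn5 and Pecam1 were lower in both cultured groups than in NB_FACS. Flt1 was lower in NB_Control but higher in NB_Stim and in A_FACS, with means of 8.97 in NB_FACS, 7.61 in NB_Control and 10.39 in NB_Stim. Of 4 genes of monocytes and neutrophils, Ly6c2 alone was called, lower in both cultured groups and higher in A_FACS than in NB_FACS. Of 4 astrocyte genes, Gfap was called higher in both cultured groups than in NB_FACS and Slc1a2 higher in NB_Stim, with none lower there. Aldh1l1 and Slc1a2 were lower in A_FACS. The astrocyte sum was 432 to 614 in NB_FACS, 817 to 954 in NB_Control, 428 to 709 in NB_Stim and 251 to 350 in A_FACS. The part of these cells in the differences below was not tested. In RNA of a whole sample, fewer cells of a type and less RNA per cell cannot be told apart.

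The promoters of the members were searched for the letters of the CLEAR element. RefSeq promoters (GRCm38.p6, 250 bases before to 50 bases after the start site) matched 47 of the 54 genes. The E-box core CACGTG was found in 16 of the 47 (34%), against 8.09% of the 27025 genes of the promoter table. The longer form TCACGTG or its reverse complement CACGTGA was found in 14 (29.8%, against 4.29%), and GTCACGTG or CACGTGAC, both strands searched and each form overlapping the shorter ones, in 12 (25.5%, against 2.55%). These 12 genes were Arsa, Atp6v0d1, Cln3, Ctsa, Ctsd, Gla, Glb1, Lamp1, Lgmn, Mcoln1, Naglu and Sgsh. A match describes letters only and is not evidence of a bound site. The windows below are shown because their genes behaved differently from each other on the arrays. They run 5′ to 3′ on the strand of the gene, end before the start site, and have the GTCACGTG or CACGTGAC match in capitals.
Sgsh, chr11:119355516-119355555, minus strand: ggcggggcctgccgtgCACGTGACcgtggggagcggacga
Glb1, chr9:114401012-114401051, plus strand: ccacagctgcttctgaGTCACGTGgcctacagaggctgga
Naglu, chr11:101070003-101070042, plus strand: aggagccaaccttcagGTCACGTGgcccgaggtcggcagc
Lgmn, chr12:102439120-102439159, minus strand: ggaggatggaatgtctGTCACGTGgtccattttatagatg
Lamp1, chr8:13159117-13159156, plus strand: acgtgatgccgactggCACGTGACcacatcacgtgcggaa
Mcoln1, chr8:3500430-3500469, plus strand: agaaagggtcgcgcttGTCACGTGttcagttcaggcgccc
Among the 12 genes with this match, Sgsh and Glb1 were higher in NB_Control than in NB_FACS, Lgmn was lower, and 9 were not called, beside 29.7% of all genes called in that comparison. With cytokines, none of the 12 was called against NB_Control by limma in the main fit, which had no block, beside 3.41% of all genes. With slide as a block, Cln3, Mcoln1 and Sgsh were called lower, beside 1476 of all genes called. With the replicate number as a block, Glb1 and Naglu were called higher, beside 1168 of all genes called. An unadjusted p under 0.05 was reached by 5 of them, in both directions. Glb1 and Naglu were higher (0.66 and 0.60), and Cln3, Mcoln1 and Sgsh were lower (-0.57, -0.56 and -0.63). The share of all genes at that unadjusted threshold was not counted. In NB_Stim, Naglu joined Sgsh and Glb1 above NB_FACS and Lgmn was again lower, beside 31.1% of all genes called.

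The first comparison asked how newborn microglia in culture differ from newborn microglia sorted from the brain. Lysosomal genes moved in both directions, with more of them higher in culture. In NB_Control 15 of the 51 genes were higher and 5 lower than in NB_FACS by limma at an adjusted p under 0.05, which is 39.2% of the members beside 29.7% of all genes tested. The median log2 difference was 0.15 over the members and 0.09 over all genes, and it was 0.30 and 0.12 without NB_FACS replicate 3 and 0.28 and 0.10 without NB_Control replicate 2. Lyz2, Lipa, Atp6v0d2, Sgsh, Galc and Mitf had the largest rises, and Arsb, Ctsf, Lgmn, Tfe3 and Scarb2 were the 5 that fell. With the replicate number as a block, the genes that fell numbered 8, with Ctsz, Grn and Manba added. In that fit 7364 of all genes were called in either direction, against 5811 in the main fit.

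The second comparison concerned the effect of the cytokines on cultured cells. Few members were called, and the balance of higher and lower calls depended on the fit. Against NB_Control, NB_Stim had 5 members higher (Ctse, Arsb, Scarb2, Ctsh and Ctss) and 1 lower (Lipa), or 11.8% of the members beside 3.41% of all genes (1.4% higher and 2% lower). The median log2 difference was -0.02 over the members and 0.00 over all genes, with 25 members above 0 and 26 below. With slide as a block 5 were higher and 8 lower (Atp6v1a, Cln3, Ctsc, Ctsk, Mcoln1, Mitf and Sgsh added), within slide 1 4 were higher and 5 lower, and with Tukey's test per gene 5 were higher and 4 lower. Arsb alone was called under every alternative, Ctss lost its call without any 1 of the 11 arrays, and Ctse lost its call without any 1 of the 6 cultured arrays or without NB_FACS replicate 2. The members higher with cytokines numbered 3 to 6 when single arrays were left out. When replicates 1 and 2 of each cultured group were averaged, Arsb was the only member called. With the replicate block 8 members were higher (Glb1, Man2b1 and Naglu added) and 2 lower (Ctsc added), and with 75th percentile scaling 4 were higher and 3 lower. The number of all genes called moved with the fit too. It was 666 in the main fit, 1476 with the slide block, 1032 within slide 1 and 1590 with Tukey's test per gene. With the replicate block it was 1168, with 75th percentile scaling 906 and with averaged replicates 118.

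The remaining comparisons set NB_Stim and A_FACS against NB_FACS. NB_Stim had 18 members higher and 5 lower than NB_FACS (45.1% called, beside 31.1% of all genes, of which 16% were higher and 15.1% lower, with a median of 0.25 against 0.11). Without NB_Stim replicate 3 the median was 0.08 over the members and 0.08 over all genes. The same 12 genes were higher than NB_FACS in both cultured groups, and Ctsf, Lgmn, Arsb and Tfe3 were lower in both. How many of all genes were called in both was not counted. A_FACS had 6 members higher and 8 lower than NB_FACS (27.5% called, beside 22.7% of all genes, of which 9.75% were higher and 12.9% lower, with a median of -0.14 against -0.01). Without A_FACS replicate 1 the member median turned to 0.07, without replicate 2 it was -0.22, and with 75th percentile scaling it was -0.37. The split of calls was 4 higher and 15 lower with 75th percentile scaling, where 4525 of all genes were called, against 4434 in the main fit. Without A_FACS replicate 1 the members higher in adult cells numbered 3 (Ids, Mitf and Sgsh lost), and without A_FACS replicate 2 they numbered 2 (Smpd1 lost as well). Of the members lower in adult cells, Atp6v1b2 was not called without A_FACS replicate 2, and Scarb2 was not called without A_FACS replicate 2 or NB_FACS replicate 2. NB_FACS serves as the reference in 3 of these comparisons and NB_Control is part of 2, so that their results are not independent. Of the 51 members, 26 had their lowest group mean in A_FACS and 17 had their highest in NB_Control and 16 in NB_Stim. The same counts over all genes were not made, and the mean of A_FACS rests on 2 arrays against 3 in the other groups.

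**Figure D1:**
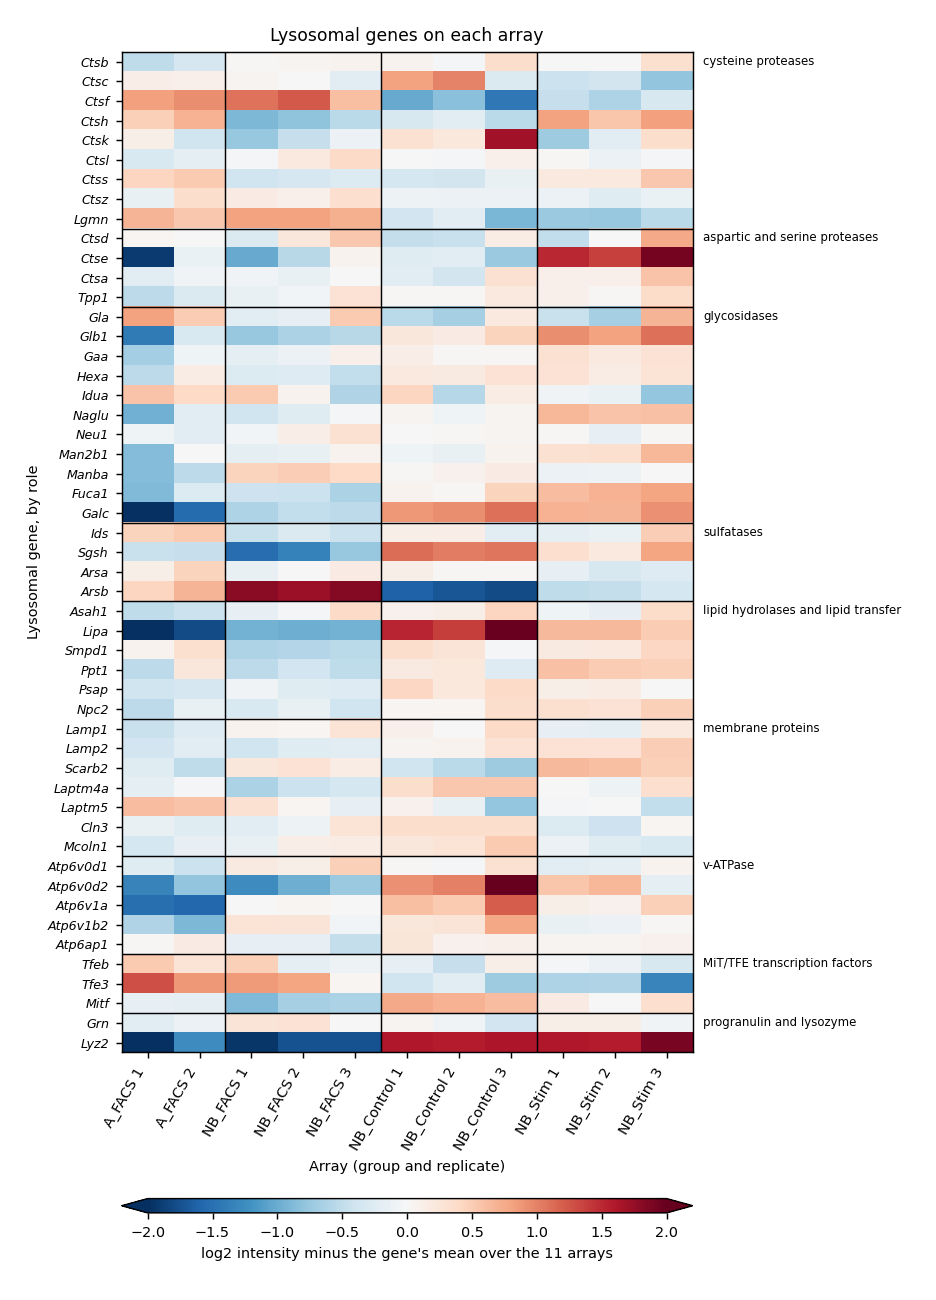
Lysosomal genes (rows, by role) on the 11 arrays (columns, by group and replicate), coloured by log2 intensity minus the mean of the gene over the 11 arrays, with colours held at 2 above and below. Lipa, Galc, Sgsh and Lyz2 are high on all 6 cultured arrays, and Arsb is high on the 3 NB_FACS arrays and lowest on the 3 NB_Control arrays.

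Cysteine proteases of the papain family cut proteins in the lumen, and legumain (Lgmn), an asparaginyl endopeptidase, processes several of them. Of the 9 genes, NB_Control had Ctsf and Lgmn below NB_FACS and none above it (22.2% called, beside 29.7% of all genes). Ctsf read 12.58, 12.72 and 12.09 in NB_FACS, 10.49, 10.65 and 10.06 in NB_Control, 11.03, 10.88 and 11.17 in NB_Stim and 12.31 and 12.42 in A_FACS. No cultured array reached a sorted one. The difference was -2.06 in NB_Control (SE 0.20, adjusted p 5.86e-05, limma here and below) and -1.44 in NB_Stim (SE 0.20, adjusted p 0.000536). Lgmn read 13.10 to 13.19 on the NB_FACS arrays, 11.88 ± 0.36 in NB_Control (mean ± SD, n = 3) and 11.64, 11.62 and 11.85 in NB_Stim. It was lower by both contrasts against NB_FACS (-1.28, SE 0.18, adjusted p 0.000468 without cytokines and -1.45, SE 0.18, adjusted p 0.000219 with them).

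Ctsh and Ctss were the cysteine proteases that were higher with cytokines and also higher in adult cells. Cathepsin H (Ctsh) is an aminopeptidase, and cathepsin S (Ctss) stays active near neutral pH and trims the invariant chain of MHC class II molecules. Ctsh read 13.20, 13.29 and 13.55 in NB_FACS, 13.77, 13.87 and 13.55 in NB_Control, 14.90, 14.65 and 14.92 in NB_Stim and 14.57 and 14.79 in A_FACS. The NB_Stim and A_FACS arrays lay above every NB_FACS and NB_Control array. Ctsh rose by 1.09 with cytokines (SE 0.15, 2.13-fold, adjusted p 0.00423), and it was 1.33 higher in A_FACS than in NB_FACS (SE 0.17, adjusted p 0.0006). Ctss read 14.85, 14.91 and 14.98 in NB_FACS, 14.89, 14.88 and 15.10 in NB_Control, 15.44, 15.45 and 15.78 in NB_Stim and 15.68 and 15.77 in A_FACS. The change with cytokines was 0.60 (SE 0.14, adjusted p 0.045), and the adult difference was 0.81 (SE 0.15, adjusted p 0.00446). Ctss rests on a pair of probes that differed in size, with 0.91 on one and 0.29 on the other with cytokines, and 1.33 and 0.29 in A_FACS. With the brighter probe alone neither difference was called (0.29 in both, adjusted p 0.499 and 0.323). The 5 genes called in no comparison of the main fit were Ctsb, Ctsc, Ctsk, Ctsl and Ctsz. With slide as a block, Ctsc and Ctsk were called lower with cytokines. With the replicate number as a block, Ctsz was called lower in NB_Control than in NB_FACS. The probes of Ctsk, the main collagenase of osteoclasts, differed by 2.14 and 0.21 between NB_Control and NB_FACS.

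Aspartic and serine proteases were represented by Ctsd, Ctse, Ctsa and Tpp1, and Ctse alone was called in any comparison. Cathepsin E (Ctse) is an aspartic protease of endosomes. It read 7.10, 6.97 and 7.51 in NB_Stim, against 5.35, 5.38 and 4.85 in NB_Control, 4.59, 5.04 and 5.67 in NB_FACS and 3.68 and 5.46 in A_FACS, where it was well above background on 1 of 2 arrays. All 3 NB_Stim arrays lay above every other array, and the other groups overlapped. Ctse rose 4-fold with cytokines (2.00, SE 0.43, adjusted p 0.035), and the log2 difference to NB_FACS was 2.09 (SE 0.43, adjusted p 0.00435). Within slide 1 the change with cytokines was 1.67 and not called (adjusted p 0.134). The size of these differences depended on the processing. Over all fits run, the change with cytokines lay between 1.08 and 2.16 and the difference to NB_FACS between 1.09 and 2.38. Ctsd, the main aspartic protease of lysosomes, read 15.16, 15.64 and 16.41 in NB_Stim and 15.35, 15.87 and 16.18 in NB_FACS, so that its spread within a group exceeded the differences between groups.

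Glycosidases cut single sugars from glycans and glycolipids. In NB_Control 4 of the 11 tested were higher than in NB_FACS (Galc, Glb1, Fuca1 and Hexa) and none lower (36.4% called, beside 29.7% of all genes), and in NB_Stim 5 were higher (Naglu added) and Manba was lower. In A_FACS none was higher, and Galc and Manba were lower. The shares called were 54.5% in NB_Stim, beside 31.1% of all genes, and 18.2% in A_FACS, beside 22.7%. Galactosylceramidase (Galc), which degrades the myelin lipid galactosylceramide, read 7.30, 7.42 and 7.40 in NB_FACS, 8.78, 8.85 and 9.02 in NB_Control, 8.61, 8.59 and 8.83 in NB_Stim and 5.91 and 6.38 in A_FACS. The cultured arrays were above and the adult arrays below every NB_FACS array. Galc differed from NB_FACS by 1.51 in NB_Control (SE 0.15, adjusted p 6.74e-05), by 1.31 in NB_Stim (SE 0.15, adjusted p 0.00016) and by -1.23 in A_FACS (SE 0.17, adjusted p 0.000899). Its separate probes were each called in the same direction in these comparisons.

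Glb1, the β-galactosidase that cleaves GM1 ganglioside, read 9.89, 10.01 and 10.08 in NB_FACS, 10.87, 10.81 and 11.08 in NB_Control and 11.57, 11.44 and 11.74 in NB_Stim. These newborn groups did not overlap, and NB_Stim lay highest. Its difference to NB_FACS was 0.92 (SE 0.24, adjusted p 0.0167) without cytokines and 1.59 (SE 0.24, adjusted p 0.000864) with them. Within slide 1 the former was 0.89 and not called (adjusted p 0.0684), and it was not called without NB_FACS replicate 1 or NB_Control replicate 3. The α-fucosidase gene Fuca1 differed from NB_FACS by 0.67 without cytokines (adjusted p 0.0189) and by 1.19 with them (adjusted p 0.00086). The former was 0.47 and not called within slide 1 (adjusted p 0.0949), and not called without replicate 3 of either group. Hexa, a β-hexosaminidase subunit, differed by 0.56 and 0.58 (adjusted p 0.0318 and 0.027), and neither call held without any 1 of the 6 arrays compared. Manba, the β-mannosidase, read 11.18, 11.22 and 11.13 in NB_FACS, 10.62, 10.63 and 10.74 in NB_Stim and 9.86 and 10.20 in A_FACS. It was lower than in NB_FACS by 0.52 in NB_Stim (log2 difference -0.52, SE 0.13, adjusted p 0.0113) and lower still in adult cells (-1.15, SE 0.14, adjusted p 0.000474). In A_FACS several glycosidases differed between the 2 arrays, with Glb1 at 9.23 and 10.34 and Naglu at 13.05 and 13.79.

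Sulfatases remove sulfate from glycosaminoglycans and sulfolipids, and in culture 1 of their 4 members was higher (Sgsh) and 1 lower (Arsb). That is 50% called in each cultured group, beside 29.7% of all genes in NB_Control and 31.1% in NB_Stim. Sulfamidase (Sgsh) acts on heparan sulfate. It read 8.29, 8.45 and 9.05 in NB_FACS, 10.93, 10.83 and 10.87 in NB_Control, 10.25 ± 0.311 in NB_Stim (mean ± SD, n = 3) and 9.36 and 9.35 in A_FACS. Every array outside NB_FACS lay above all NB_FACS arrays. The rise was 4.86-fold in NB_Control (2.28, SE 0.22, adjusted p 4.62e-05), 3.15-fold in NB_Stim (1.66, SE 0.22, adjusted p 0.000317) and 1.69-fold in A_FACS (0.76, SE 0.24, adjusted p 0.0474). The adult call held without NB_FACS replicate 3 or NB_Stim replicate 3 but not without any other single array. Arylsulfatase B (Arsb) acts on dermatan and chondroitin sulfate. It read 13.42, 13.32 and 13.45 in NB_FACS, 9.99, 9.91 and 9.82 in NB_Control, 11.10, 11.14 and 11.27 in NB_Stim and 12.04 and 12.30 in A_FACS. The 4 groups did not overlap at all. Arsb was 11.2-fold lower in NB_Control than in NB_FACS (-3.49, SE 0.12, adjusted p 2.1e-07), and with cytokines it was 2.39-fold higher than in NB_Control (1.26, SE 0.12, adjusted p 0.000601). It remained below NB_FACS in NB_Stim (-2.23, SE 0.12, adjusted p 2.23e-06) and was below it in A_FACS (-1.23, SE 0.14, adjusted p 0.000302). Iduronate sulfatase (Ids) was 0.87 higher in A_FACS than in NB_FACS (SE 0.21, adjusted p 0.0168), with 11.47 and 11.55 against 10.59, 10.74 and 10.60. Arsa was not called in any of the 4 comparisons.

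Among the 6 genes of lipid hydrolysis and lipid transfer, all lay above NB_FACS in NB_Control in their means (median of all genes 0.09). Of these, 3 were called (Lipa, Smpd1 and Psap), or 50% beside 29.7% of all genes. In NB_Stim 4 were called higher (Lipa, Ppt1, Smpd1 and Npc2), or 66.7% beside 31.1% of all genes. Lysosomal acid lipase (Lipa) frees cholesterol and fatty acids from cholesteryl esters and triglycerides. It read 12.85, 12.81 and 12.85 in NB_FACS, 15.32, 15.17 and 15.76 in NB_Control, 14.44, 14.43 and 14.30 in NB_Stim and 11.87 ± 0.176 (mean ± SD, n = 2) in A_FACS. No pair of groups overlapped, with NB_Control highest and A_FACS lowest. Lipa was 5.99-fold higher in NB_Control than in NB_FACS (2.58, SE 0.16, adjusted p 4.14e-06). With cytokines Lipa was 2.04-fold lower than without (-1.03, SE 0.16, adjusted p 0.00856), the only member called lower with them in the main fit. It stayed above NB_FACS in NB_Stim (1.56, SE 0.16, adjusted p 8.59e-05), and it was lower in A_FACS (-0.96, SE 0.18, adjusted p 0.00469). The acid sphingomyelinase gene Smpd1 was higher than in NB_FACS in all 3 other groups, by 0.78 in NB_Control (adjusted p 0.00264), 0.85 in NB_Stim (adjusted p 0.00157) and 0.78 in A_FACS (adjusted p 0.00746). Its NB_FACS arrays read 11.20, 11.23 and 11.28, and no other array was below 11.78. Psap, the precursor of the saposins that present lipids to the hydrolases, differed by 0.53 in NB_Control (adjusted p 0.00759).

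**Figure D2:**
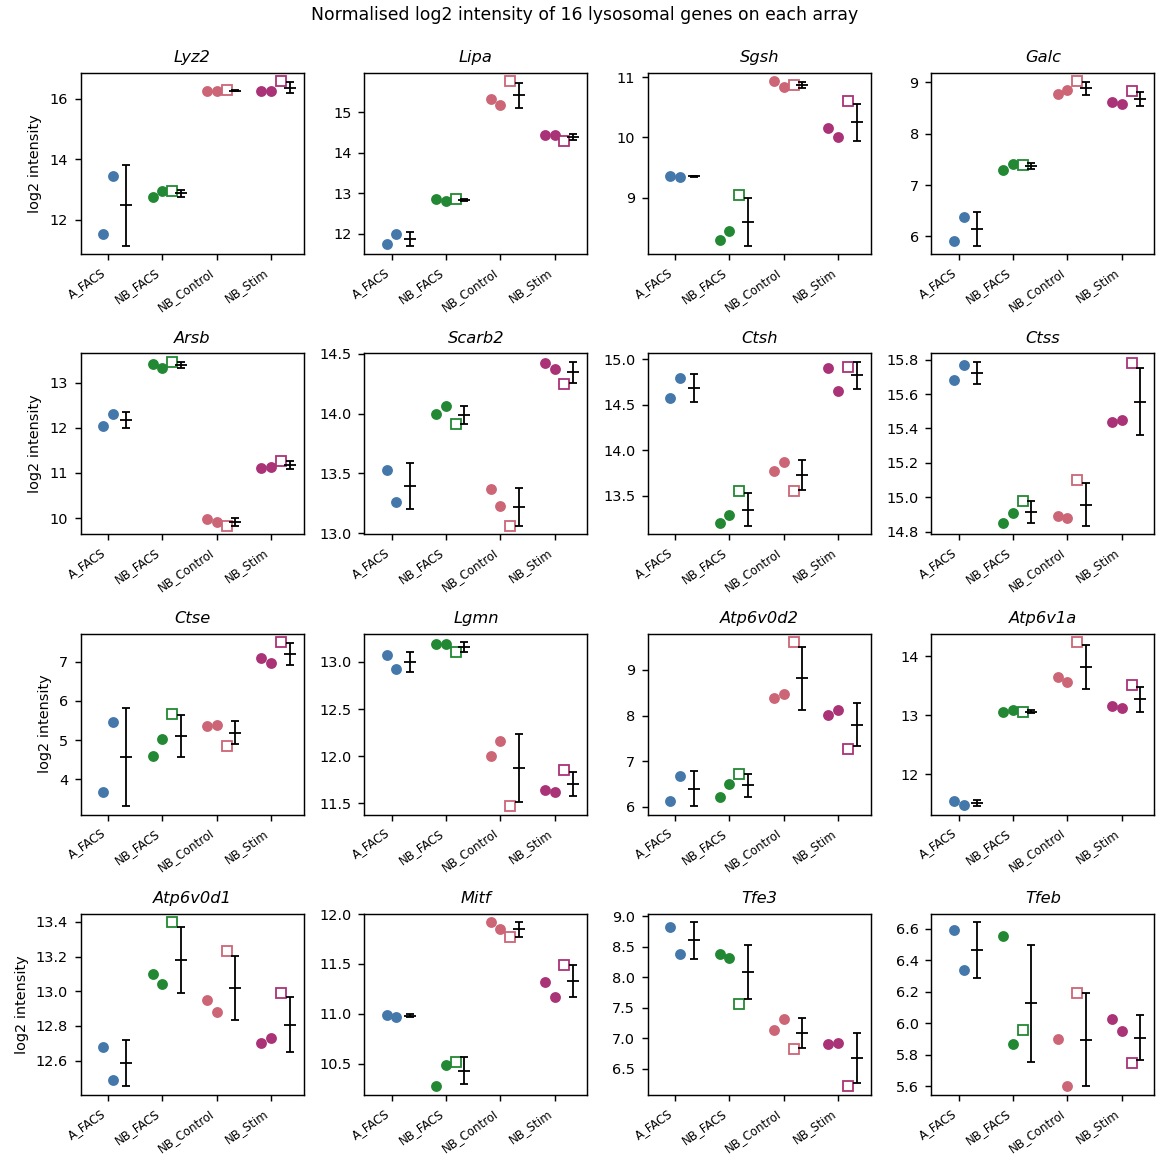
Normalised log2 intensity of 16 lysosomal genes on each array, by group; filled circles are arrays of slide 1 and open squares arrays of slide 2, and the black bar is the mean with its SD (n = 2 in A_FACS, n = 3 in the other groups). The vertical scale differs between panels and does not start at 0, and Arsb and Lipa show 4 separate groups.

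Membrane proteins of the lysosome include the glycoproteins LAMP1 and LAMP2, the receptor LIMP-2 (Scarb2), the LAPTM proteins, the ion channel TRPML1 (Mcoln1) and CLN3. Scarb2, whose product carries a hydrolase to the lysosome, read 14.00, 14.06 and 13.91 in NB_FACS, 13.37, 13.23 and 13.06 in NB_Control, 14.42, 14.37 and 14.25 in NB_Stim and 13.53 and 13.26 in A_FACS. It was lower in NB_Control than in NB_FACS (-0.77, SE 0.13, adjusted p 0.0018) and 2.18-fold higher with cytokines than without (1.12, SE 0.13, adjusted p 0.00192). NB_Stim was not called against NB_FACS (0.35, adjusted p 0.0765), and adult cells were lower (-0.60, SE 0.15, adjusted p 0.0185). Laptm4a was 0.96 higher in NB_Control than in NB_FACS (SE 0.15, adjusted p 0.00109) and 0.55 higher in NB_Stim (adjusted p 0.0215), the latter not called without NB_FACS replicate 1 or 2 or NB_Stim replicate 3. Lamp1 was not called in any comparison. Its differences were 0.04 in NB_Control, -0.18 in NB_Stim and -0.48 in A_FACS against NB_FACS (adjusted p 0.886, 0.437 and 0.0844) and -0.22 with cytokines (adjusted p 0.617). With the slide or the replicate number as a block, Lamp1 was lower in A_FACS (-0.38 in both, adjusted p 0.0289 and 0.0452).

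Lamp2, whose transcripts differ at their 3′ ends, was called higher in both cultured groups against NB_FACS (0.42, adjusted p 0.0337, and 0.64, adjusted p 0.00421), but its probes did not move together. The probe of one transcript rose by 1.18 in NB_Control and 1.40 in NB_Stim (adjusted p 0.00118 and 0.000426), and the other, brighter probe read -0.33 and -0.12 (adjusted p 0.0805 and 0.522). The gene-level values for Lamp2 therefore rest on 1 of its probes. The call in NB_Control was also lost without NB_FACS replicate 1 or 2, any NB_Control array or NB_Stim replicate 1. Laptm5, Cln3 and Mcoln1 were not called in any of the 4 comparisons of the main fit, although Cln3 and Mcoln1 did not overlap between NB_Stim and NB_Control. With slide as a block, Cln3 and Mcoln1 were called lower with cytokines. Mcoln1 read 9.28, 9.33 and 9.57 in NB_Control and 8.93, 8.81 and 8.75 in NB_Stim.

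The v-ATPase consists of a cytosolic V1 part that splits ATP and a membrane V0 part that moves protons. Of 5 members, 3 were higher in NB_Control than in NB_FACS, beside 15.8% of all genes. In A_FACS 3 were lower than in NB_FACS, beside 12.9% of all genes. None was called with cytokines in the main fit, beside 3.41% of all genes, and all 5 differences were below 0 there (median of all genes 0.00). With slide as a block Atp6v1a was called lower with cytokines. Atp6v0d2, the V0 d2 subunit known from osteoclasts and macrophages, read 6.20, 6.49 and 6.71 in NB_FACS, 8.38, 8.47 and 9.62 in NB_Control, 8.01, 8.12 and 7.26 in NB_Stim and 6.12 and 6.67 in A_FACS. The cultured arrays all lay above the sorted ones, and replicate 3 stood apart in both cultured groups, in opposite directions. Atp6v0d2 was 5.11-fold higher in NB_Control than in NB_FACS (2.35, SE 0.35, adjusted p 0.000759) and 2.52-fold higher in NB_Stim (1.33, SE 0.35, adjusted p 0.0169). The NB_Stim difference was 1.72 on slide 1 and 0.56 on slide 2, and it was not called without NB_FACS replicate 1 or NB_Stim replicate 1 or 2. The change with cytokines was -1.02 (SE 0.35, adjusted p 0.189), with -0.35 on slide 1 and -2.35 on slide 2. Beside it, the summed signal of 4 osteoclast differentiation genes was 650 to 731 in NB_FACS, 500 to 592 in NB_Control and 494 to 898 in NB_Stim. The widely expressed paralogue Atp6v0d1 was not called in culture (-0.16, adjusted p 0.512 in NB_Control, and -0.37, adjusted p 0.107 in NB_Stim, the latter called with the replicate block at adjusted p 0.0188). It was lower in A_FACS than in NB_FACS (-0.60, SE 0.18, adjusted p 0.0371), a call that held without NB_Control replicate 3 or NB_Stim replicate 3 but not without any other single array.

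Atp6v1a, the catalytic V1 subunit, read 13.05, 13.09 and 13.05 in NB_FACS, 13.65, 13.57 and 14.25 in NB_Control, 13.16, 13.13 and 13.52 in NB_Stim and 11.54 and 11.47 in A_FACS. The adult arrays lay far below all newborn arrays. It was 2.94-fold lower in A_FACS (-1.55, SE 0.21, adjusted p 0.000831) and 1.69-fold higher in NB_Control than in NB_FACS (0.76, SE 0.19, adjusted p 0.0126). The V1 subunit gene Atp6v1b2 was also lower in A_FACS (-0.91, SE 0.20, adjusted p 0.0104), whereas the accessory subunit Atp6ap1 differed by 0.41 in NB_Control (adjusted p 0.0342) and lost that call without any 1 of the 6 NB_FACS and NB_Control arrays and without NB_Stim replicate 1 or 2.

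The transcription factors of the MiT/TFE family did not move together. Mitf read 10.27, 10.49 and 10.52 in NB_FACS, 11.92, 11.85 and 11.77 in NB_Control, 11.32, 11.17 and 11.49 in NB_Stim and 10.99 and 10.97 in A_FACS. All arrays outside NB_FACS were above it. Mitf was 2.68-fold higher in NB_Control (1.42, SE 0.13, adjusted p 4.22e-05), 1.87-fold in NB_Stim (0.90, SE 0.13, adjusted p 0.000677) and 1.47-fold in A_FACS (0.55, SE 0.15, adjusted p 0.024), the last not called without either A_FACS array or NB_FACS replicate 1. With cytokines it read -0.52 (SE 0.13, adjusted p 0.071), and this was called when slide was a block (adjusted p 0.0295). Tfe3 went the other way, with 8.38, 8.31 and 7.57 in NB_FACS, 7.13, 7.31 and 6.82 in NB_Control, 6.91, 6.93 and 6.21 in NB_Stim and 8.82 and 8.39 in A_FACS. The third NB_FACS array was the nearest to the cultured ones. Tfe3 was lower in both cultured groups than in NB_FACS (2-fold, SE 0.28 on the log2 scale, adjusted p 0.021, and -1.40, SE 0.28, adjusted p 0.00366), and its probes fell alike. The former call did not hold without NB_FACS replicate 1 or 2 or without NB_Control replicate 1 or 3. Tfe3 was not called with cytokines (-0.40, adjusted p 0.589) or in A_FACS (0.52, adjusted p 0.275). Tfeb, measured by 4 probes, was not called anywhere, with log2 differences of -0.23 and -0.22 in NB_Control and NB_Stim, 0.34 in A_FACS and 0.01 with cytokines (adjusted p 0.485, 0.487, 0.361 and 0.99). All these are RNA levels, and the activity of these factors, which depends on their place in the cell, was not measured.

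Progranulin (Grn) is a secreted precursor whose fragments act in the lysosome, and lysozyme (Lyz2) cleaves bacterial cell walls and marks myeloid cells. Lyz2 read 12.74, 12.94 and 12.94 in NB_FACS, 16.28, 16.25 and 16.30 in NB_Control, 16.28, 16.25 and 16.58 in NB_Stim and 11.52 and 13.43 in A_FACS. The cultured arrays stood far above all sorted ones, and the adult arrays lay on either side of NB_FACS. Its rise was 10.6-fold in NB_Control (3.40, SE 0.38, adjusted p 0.000122) and 11.3-fold in NB_Stim (3.50, SE 0.38, adjusted p 0.000102), with a change of 0.09 with cytokines (SE 0.38, adjusted p 0.958). The adult difference was -0.39 (adjusted p 0.559), 0.56 without A_FACS replicate 1, and -1.35 and called lower without replicate 2. Whether its probe separates Lyz2 from the close paralogue Lyz1 was not tested. Grn differed by -0.32 in NB_Control, -0.13 in NB_Stim and -0.35 in A_FACS from NB_FACS and by 0.19 with cytokines (adjusted p 0.148, 0.565, 0.168 and 0.648). With the replicate block it was called lower in NB_Control (-0.32, adjusted p 0.0458). In A_FACS it was called lower with the replicate block (-0.44, adjusted p 0.0242), the slide block (-0.44, adjusted p 0.0141), within slide 1 (-0.44, adjusted p 0.0227) and with 75th percentile scaling (-0.56, adjusted p 0.0399).

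**Figure D3:**
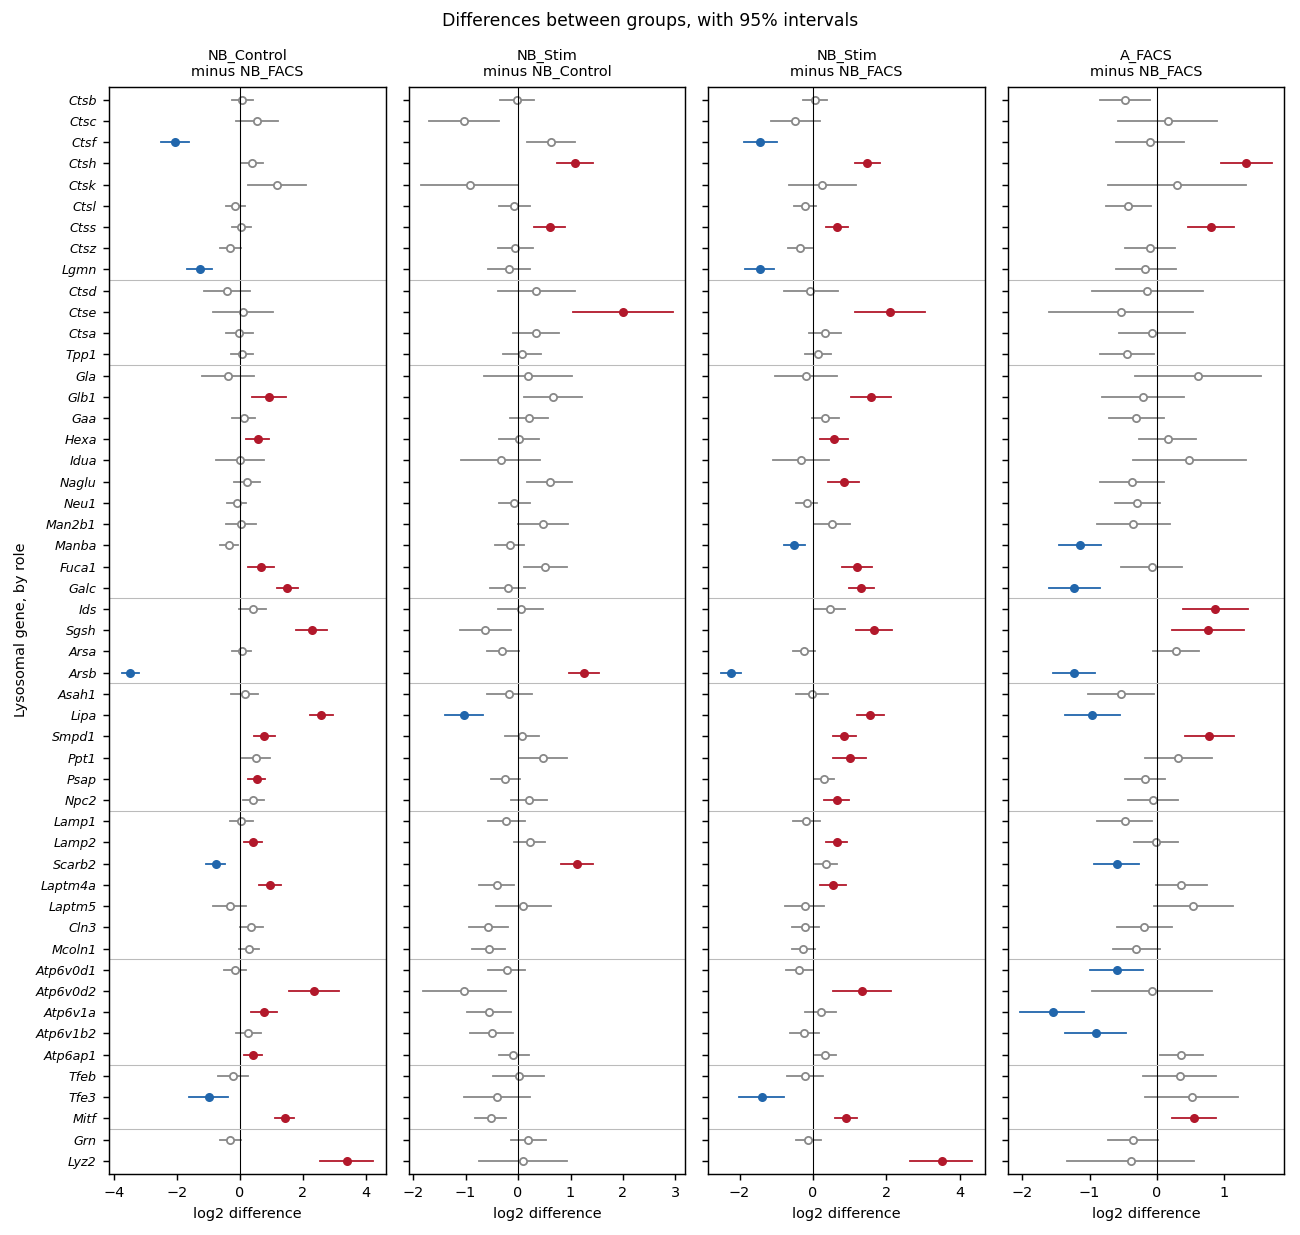
Log2 difference of each lysosomal gene (rows, by role) in the 4 comparisons, with its 95% interval from limma; filled red points were called higher, filled blue points lower, and open grey points were not called at an adjusted p under 0.05. Horizontal scales differ between panels, and the panel of NB_Stim against NB_Control holds 6 filled points.

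In the main fit, 30 of the 51 members were called in at least 1 comparison and 21 in none, and the latter included Ctsb, Ctsd, Ctsl, Lamp1 and Grn. The share of all genes called in at least 1 comparison was not counted, so these counts do not set the members apart. The size of the intervals limits what can be said of these genes. With cytokines, the 95% interval ran from -0.38 to 1.08 for Ctsd, from -0.58 to 0.14 for Lamp1 and from -0.14 to 0.53 for Grn.

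Other genes of the pathway were taken from a separate list of 67, of which 63 were tested. This list too was chosen with earlier results of these data known. In NB_Control 22 were higher and 11 lower than in NB_FACS (52.4% called, beside 29.7% of all genes). Among 11 further v-ATPase subunits 5 were higher and 3 lower. Atp6v1g1 (0.99, adjusted p 0.000599) and Atp6v1f (0.83, adjusted p 0.00448), both of the V1 part, were higher, while Tcirg1, the V0 a3 subunit of osteoclasts, was lower (-0.70, adjusted p 0.0356). Among 13 genes of nutrient sensing at the lysosomal surface 6 were higher and 2 lower. Rragd, a small GTPase that recruits mTORC1, was higher (2.58, adjusted p 0.00127). The genes of the folliculin complex were split. Flcn and its partner Fnip1 fell (-1.05, adjusted p 0.00299, and -1.23, adjusted p 0.00101), while the other partner Fnip2 was called higher (mean 7.96, against 7.06 in NB_FACS). Igf2r, the large mannose phosphate receptor that delivers hydrolases, was higher in NB_Control (3.36, adjusted p 4.79e-05) and lower in A_FACS (-1.48, adjusted p 0.015). The lysosomal phosphatase Acp5 was lower than in NB_FACS in NB_Control (-4.91, adjusted p 0.000333), NB_Stim (-4.24, adjusted p 0.000819) and A_FACS (-6.45, adjusted p 0.000284).

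With cytokines, 1 of these 63 genes was called (1.59% beside 3.41%), the scaffold gene Lamtor3, which was lower (-0.74, adjusted p 0.0495). Median log2 differences with cytokines were -0.25 over the further v-ATPase subunits and 0.13 over the 16 further hydrolases and activators. NB_Stim had 19 higher and 13 lower than NB_FACS (50.8% called, beside 31.1% of all genes). In A_FACS 5 were higher and 13 lower than in NB_FACS (28.6% called, beside 22.7%), and among 8 genes of mannose phosphate tagging and sorting 4 were lower (Gnptab, Igf2r, M6pr and Gga2) and none higher. The cystatin gene Cst7, an inhibitor of cysteine cathepsins, was 3.89 higher in NB_Stim than in NB_FACS (adjusted p 0.0221). It read 13.27, 13.22 and 12.21 in NB_Stim, 10.54, 10.45 and 8.44 in NB_Control and 8.27 and 13.47 in A_FACS. The second adult array thus lay above every NB_Stim array. Cstb was higher in NB_Control (1.00, adjusted p 0.00152) and lower in A_FACS (-1.08, adjusted p 0.00299) than in NB_FACS.

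**Figure D4:**
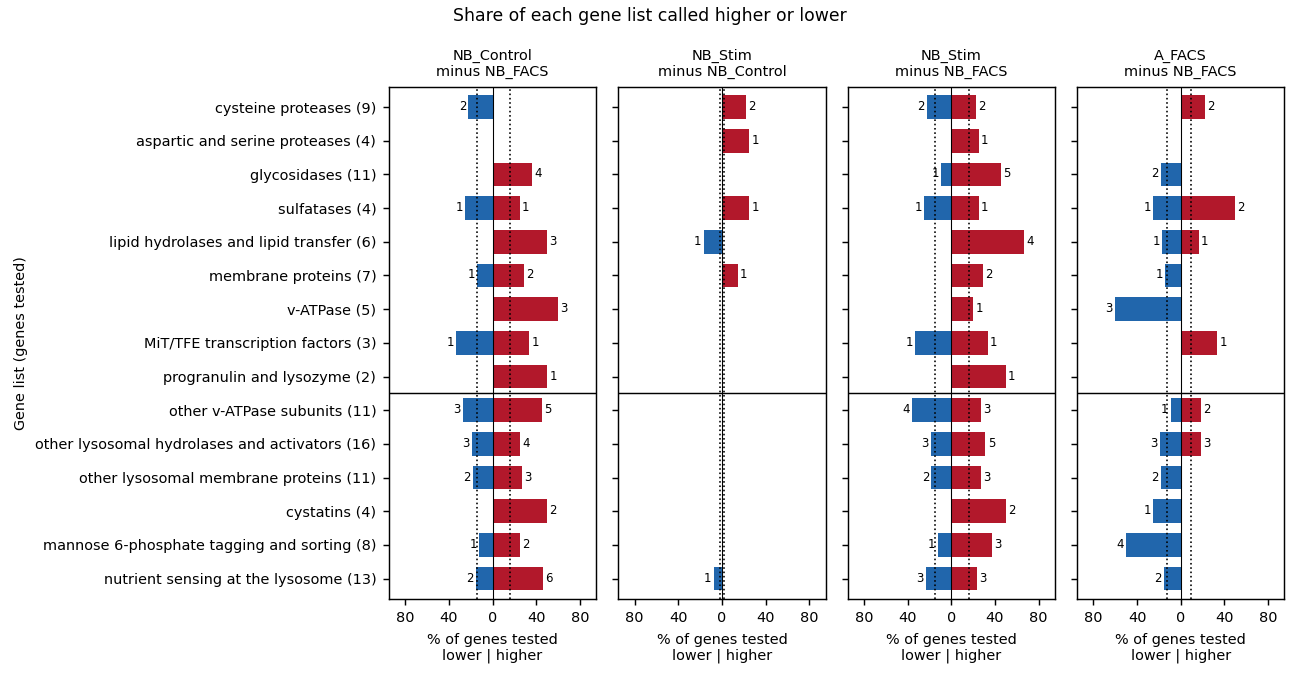
Share of the tested genes of each list called higher (red, to the right) or lower (blue, to the left) in the 4 comparisons, with the number of genes at each bar; lists above the line are the 51 members by role, those below are the 63 other pathway genes. Dotted lines give the share of all genes tested that was called in that direction, 15.8% higher and 13.9% lower in NB_Control against NB_FACS.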

How the data were processed

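RNA of 11 samples was labelled with Cy3 and hybridised to Agilent mouse arrays. The deposited scanner files hold a background-subtracted, detrended intensity for each of 62976 spots, made by the authors with Agilent Feature Extraction (version 11 per the labels, 11.5.1.1 per the file headers). The deposited value table holds the same intensity (0 of 62927 entries differed, relative tolerance 1e-05), so the quantile normalisation that the study's methods name was not yet applied. Here, control spots (1439) and flagged spots were left out, log2 intensities were quantile normalised, and 44727 probes were kept that stood well above background on all arrays of 1 group or more. Quantile normalisation gives all arrays 1 distribution and would hide a shift shared by most genes. Symbols came from RefSeq accessions (GRCm38.p6 table, 36264 of 60037 probes, 60.4%), and probes of a gene were averaged (40 members on 1 probe, 11 on several). limma 3.58.1 in R 4.3.3 fitted 1 mean per group over all 11 arrays (7 residual degrees of freedom), with two-sided moderated tests and Benjamini-Hochberg adjustment over 19555 genes; called means an adjusted p under 0.05. The script was tested on simulated data. Figures were drawn with matplotlib 3.10.9.

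The members and lists were chosen with earlier results of these data known. Named in each comparison were up to 6 called members with the largest rise and up to 6 with the largest fall, and always Tfeb, Tfe3, Mitf, Atp6v0d1, Atp6v0d2, Lamp1, Lyz2 and Grn; other members were described briefly, and single arrays or probes were shown where they bore on a call. The methods define samples as independent biological replicates. Deviations of same-numbered newborn samples from their group means correlated in every pair (r = 0.11 to 0.49). The main fit did not use the numbers. Pairing by number entered only as an alternative, the replicate block, from the data and not the design. Differently numbered samples on slide 1 correlated about as much (r = 0.19 to 0.36) and samples on different slides negatively (r = -0.45 to -0.18), and number 3 coincides with slide 2, so for it number and slide cannot be told apart. Alternatives changed normalisation, background correction, filter, probe summary, input table, slide, pairing, samples and test. Gnptg, Ap1g1, Atp6v0b and Atp6v0c of the pathway list, and Aif1 of the microglial list, had no matched probe. The precision is limited by 2 or 3 arrays per group.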

Additional observations from a re-analysis of the deposited data

How the results depend on the processing

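Calls of 12 of the 20 members between NB_Control and NB_FACS, 1 of 6 between NB_Stim and NB_Control, 14 of 23 between NB_Stim and NB_FACS and 6 of 14 between A_FACS and NB_FACS held under every alternative run. The number of all genes called moved with the fit too. Between NB_Control and NB_FACS it was 5811 in the main fit and 3547 with Tukey's test after Benjamini-Hochberg adjustment. Between NB_Stim and NB_FACS it was 6082, and 8949 within slide 1. Between A_FACS and NB_FACS it was 4434, and 6404 with the slide block. For NB_Control against NB_FACS, the count of higher members was 9 with Tukey's test after Benjamini-Hochberg adjustment and 11 to 17 with single arrays left out, and the count of lower members was 8 with the replicate block and 4 to 6 with single arrays left out. For NB_Stim against NB_Control, 3 were higher without the filter or with Tukey's test after Benjamini-Hochberg adjustment, 8 with the replicate block, 1 with cultured replicates 1 and 2 averaged, and 3 to 6 with single arrays left out. The count of lower members there was 3 with 75th percentile scaling or normexp, 8 with the slide block, 5 within slide 1, 2 with the replicate block, 4 with Tukey's test per gene, 0 with it after Benjamini-Hochberg adjustment or with averaged replicates, and 1 to 2 with single arrays left out. For NB_Stim against NB_FACS, 8 were lower within slide 1, and 15 to 19 were higher and 5 to 6 lower with single arrays left out. For A_FACS against NB_FACS, 3 were higher and 5 lower with Tukey's test after Benjamini-Hochberg adjustment, 15 were lower with 75th percentile scaling and 13 with the slide block, and 2 to 6 were higher and 6 to 11 lower with single arrays left out. The replicate block removed no call; in a fit of all 4 groups, chosen after seeing the data, it gave 8 higher and 11 lower in A_FACS. Differences that changed sign were Lamp1 in NB_Control against NB_FACS (-0.01 with 75th percentile scaling, -0.07 to 0.12 with single arrays left out), Lamp2 with its brightest probe (-0.33 in NB_Control and -0.12 in NB_Stim), Lyz2 with cytokines (-0.01 to 0.15 with single arrays left out) and in A_FACS (0.56 without A_FACS replicate 1 and -1.35 without replicate 2). Tfeb with cytokines was -0.10 with averaged replicates, -0.14 to 0.16 with single arrays left out, and with the strict filter it was 0.03 in NB_Stim and -0.02 in A_FACS against NB_FACS. Atp6v0d2 in A_FACS was 0.01 with 75th percentile scaling, the slide block or the replicate block, 0.05 within slide 1, and -0.34 to 0.20 with single arrays left out. The cause of these changes was not tested, except that only 1 Lamp2 probe is used in its alternative.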
